A study of Mus musculus with 15 samples.

Results

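Myosin is the motor of the heart muscle cell, and this account follows the transcripts of 10 of its heavy chain, light chain and light chain kinase genes in cardiomyocytes given ATF4, DDIT3 or GFP. The genes Myh6, Myh7, Myh7b, Myl2, Myl3, Myl4, Myl7, Myl1, Myl9 and Mylk3 were taken by symbol from the table of read counts. All 10 were among its 23337 genes, and all 10 passed the filter on low counts that left 11814 genes for testing.

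The 3 groups were cardiomyocytes of Rosa-Cas9GFP mice that received an AAV on postnatal day 1 and were 4 weeks old when the cells were taken. The first group received AAV-ATF4-2A-GFP, the second AAV-DDIT3-2A-GFP and the third, which serves as the control, AAV-GFP, with 5 libraries each. Cells of every group carried Cas9 and GFP at the Rosa locus as well as GFP from the vector, and were freed by Langendorff perfusion and purified by FACS. ATF4 and DDIT3 (CHOP) are transcription factors of the endoplasmic reticulum stress response. The promoter that drives each transgene is not given in the sources used here.

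A myosin molecule joins a pair of heavy chains, which hold the motor and the rod, with light chains of an essential and a regulatory kind that stiffen the lever arm of each head. In the mouse heart the ventricle uses beta heavy chain (Myh7) before birth and switches to the faster alpha heavy chain (Myh6) around birth, while the light chains divide by chamber into ventricular (Myl2, Myl3) and atrial (Myl7, Myl4) kinds. Return of the fetal heavy chain is a widely used sign of stress in the rodent heart.

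The libraries held 6217744 to 7514376 counts in ATF4, 7268663 to 8317249 in DDIT3 and 6680988 to 7963333 in GFP cells. Atf4 was at 351 to 538 CPM (counts scaled to library size with TMM factors) in ATF4, 43.6 to 101 in DDIT3 and 51.3 to 82.1 in GFP libraries, and Ddit3 at 664 to 1073 CPM in DDIT3, 21.7 to 38.5 in ATF4 and 13.4 to 16.6 in GFP libraries. These levels fitted the labels in all 15 libraries. By Xist and Y-linked genes 4 libraries were female, namely replicate 2 of ATF4 and of DDIT3 and GFP replicates 4 and 5. The label of GFP replicate 5 names another version of the SMART-Seq protocol than those of the other 14 libraries. All 16 cardiomyocyte markers looked for were detected, with summed levels of 70297 to 96438 CPM in ATF4, 105024 to 118702 in DDIT3 and 110731 to 122061 in GFP libraries. The ATF4 range lay below both others. The largest part of the sum in GFP libraries was Atp2a2, with means of 27816 CPM there, 23428 in DDIT3 and 16090 in ATF4. Of the 16 markers 9 were called lower with ATF4 and 7 were not called, among them Actn2 (log2 fold change −0.02) and Ttn (−0.07). In sums from bulk samples fewer cells of a type, less RNA per cell and lower expression of single genes cannot be told apart.

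Each of the 3 striated heavy chain genes hosts a microRNA in an intron on its own strand, and the family is shown here because the precursor row of miR-208b is read beside Myh7. The mature sequences are from RefSeq (GRCm38.p6), and capitals mark the seed, bases 2 to 8.
mmu-miR-208a-3p in Myh6: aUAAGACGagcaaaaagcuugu
mmu-miR-208b-3p in Myh7: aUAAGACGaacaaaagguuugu
mmu-miR-499-5p in Myh7b: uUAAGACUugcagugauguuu
They lie at chr14:54949072-54949093, chr14:54975710-54975731 (both minus strand) and chr2:155622893-155622913 (plus strand). miR-208a and miR-208b share their seed and differ at 3 bases over the whole length, and the seed of miR-499 differs from theirs in 1 base. Mature microRNAs were not measured. Reads on the precursor rows are fragments of polyadenylated RNA.

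The upstream windows of Myl1 and Myl3 are shown because these genes had the largest changes with a call. Both are the 250 bases before the RefSeq start, 5′ to 3′ on the gene's strand (GRCm38.p6), at chr1:66945057-66945306 (minus strand) for Myl1 and chr9:110763428-110763677 (plus strand) for Myl3. Capitals mark matches on either strand to CATTCC, the M-CAT element bound by TEAD factors, or to TATAAA, the TATA box.
Myl1: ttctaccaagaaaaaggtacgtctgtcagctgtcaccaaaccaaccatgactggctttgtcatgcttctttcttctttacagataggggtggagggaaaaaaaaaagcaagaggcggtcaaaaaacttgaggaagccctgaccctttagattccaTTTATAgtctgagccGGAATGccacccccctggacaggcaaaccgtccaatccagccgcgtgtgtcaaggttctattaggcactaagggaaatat
Myl3: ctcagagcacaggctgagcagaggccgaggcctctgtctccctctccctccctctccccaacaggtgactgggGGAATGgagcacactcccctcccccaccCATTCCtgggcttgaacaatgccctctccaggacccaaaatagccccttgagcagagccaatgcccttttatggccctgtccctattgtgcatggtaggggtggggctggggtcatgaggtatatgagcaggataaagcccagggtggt
In Myl1 the TATA match began 95 bases and the M-CAT match 80 bases before the RefSeq start, which lies 87 bases from the nearest GENCODE start. In Myl3 the M-CAT matches began 177 and 149 bases before the start, and no marked matches overlap. M-CAT was found in 6 of 13 windows, in 6 of the 10 genes, against 12.6% of 32851 mouse windows of the same length. The letters TGATGNAAN, a form of the CEBP-ATF response element to which ATF4 and DDIT3 can bind with CEBP partners, were in 0 of the 13 windows and in 3.44% of all windows. A match is a description of the letters and not a binding site. The 2 windows of Myl2 among the 13 lie 7762 and 8227 bases from its GENCODE start.

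With ATF4, the ventricular light chains Myl3 and Myl2 fell, Myl1, the light chain of fast skeletal muscle, rose, and the other 7 genes did not pass the test. Relative to GFP, Myl3 fell by 0.82 and Myl2 by 0.45 on the log2 scale, while Myl1 was 1.43 higher. These 3 calls compare with 32.2% of all genes tested (16.5% higher and 15.6% lower), so that 3 of 10 is near the background. With DDIT3, 0 of the 10 passed in edgeR and 0 in DESeq2, against 0.863% of all genes (0.525% higher and 0.339% lower), and at an unadjusted p under 0.05 there was 1, Myl1, beside 9.71% of all genes. Between ATF4 and DDIT3 the same 3 genes were called in the same directions, against 33.8% of all genes (17.8% higher and 16% lower). The comparisons of ATF4 with GFP and with DDIT3 share the ATF4 libraries. The median log2 fold change of the 10 genes was −0.36 for ATF4 and 0.08 for DDIT3 relative to GFP, beside 0.02 and 0.00 over all genes tested.

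**Figure D1:**
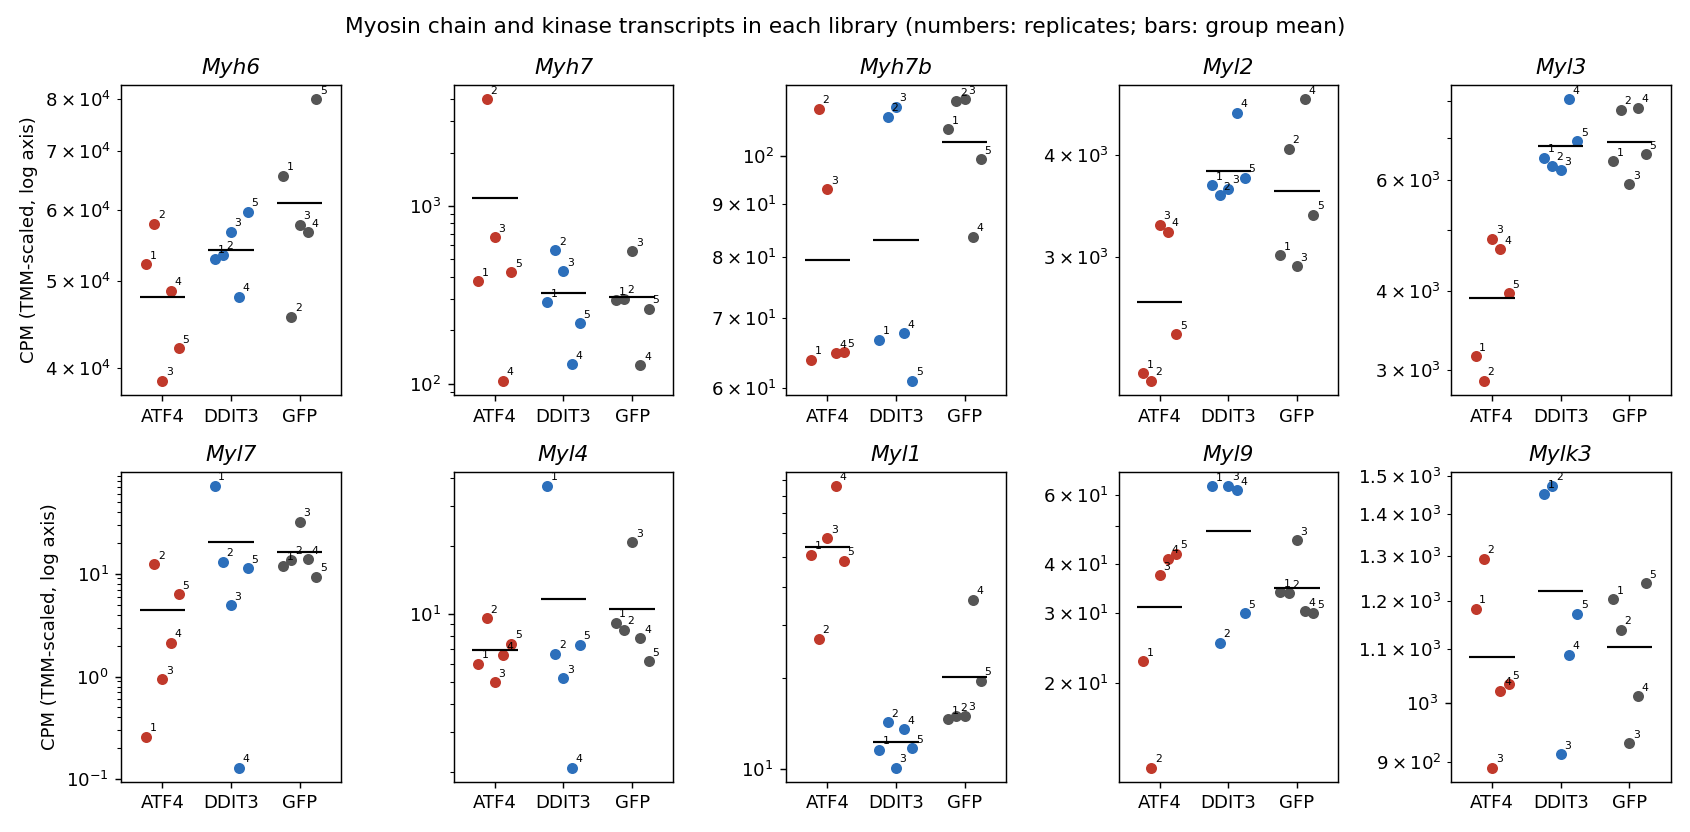
Level of each of the 10 genes in each library, in CPM with TMM factors on log axes whose range differs by panel. Points are libraries with their replicate number, bars are group means, and groups run ATF4, DDIT3, GFP. All ATF4 points of Myl3 (2882 to 4843 CPM) lie below those of DDIT3 and GFP, and Myh7 has 1 point far above the rest, ATF4 replicate 2 at 4006 CPM.

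Adult alpha heavy chain, Myh6, was the most abundant of the 10 per length, at 21033 TPM in GFP libraries (counts divided by gene length and scaled to a fixed sum), rank 3 of all genes. It lies on chr14:54941921-54966927, minus strand, 3756 bases downstream of Myh7. Myh6 was at 52191, 57986, 38669.5, 48805 and 42086 CPM in ATF4 replicates 1 to 5. It was at 52999, 53498, 56797, 48010.5 and 59793 CPM in DDIT3 and at 65581, 45632, 57822, 56736 and 79953 CPM in GFP replicates 1 to 5. The ATF4 range reached lowest, at replicate 3, and overlapped both others. For Myh6 the log2 fold change was −0.35 ± 0.14 for ATF4 (SE, adjusted p = 0.0550) and −0.17 ± 0.14 for DDIT3 (adjusted p = 0.772) relative to GFP. The ATF4 value narrowly missed the threshold of 0.05. It passed with other scaling factors (0.0497 and 0.0350), in DESeq2 (0.0434) and without ATF4 and DDIT3 replicate 2 together (0.0237). It also passed without ATF4 replicate 2 (0.0204) and without GFP replicate 2 (0.0152). In 18 of the 25 alternatives it did not pass. Without GFP replicate 5, the highest library, it was −0.24 (adjusted p = 0.174), and without ATF4 replicate 3, the lowest, −0.28 (adjusted p = 0.128). The adjusted p was 0.0769 with a term for sex and 0.0965 in male libraries only. Myh6 did not pass between ATF4 and DDIT3, at −0.18 ± 0.14 (adjusted p = 0.338).

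Fetal beta heavy chain, Myh7 (chr14:54970684-54994626, minus strand), was at 376, 4006, 666, 104 and 424 CPM in ATF4 replicates 1 to 5. It was at 287, 563, 431, 128 and 218 CPM in DDIT3 and 294, 300.0, 557, 127 and 263 CPM in GFP replicates 1 to 5. A single library stood out, ATF4 replicate 2, at 6.02 times the highest of the other 14. The other 4 ATF4 libraries averaged 392.4 ± 230.6 CPM (SD), and their range spanned those of DDIT3 and GFP. For Myh7 the log2 fold change with ATF4 was 1.86 ± 0.80 relative to GFP (adjusted p = 0.0929) and 1.78 ± 0.80 relative to DDIT3 (adjusted p = 0.104), and for DDIT3 relative to GFP 0.08 ± 0.78 (adjusted p = 0.994). Without ATF4 replicate 2 the value against GFP was 0.35 (adjusted p = 0.652), and in male libraries only it was 0.03 (adjusted p = 0.978). Without ATF4 replicate 4, the lowest library, it was 2.15 and passed (adjusted p = 0.0392). The value against DDIT3 was 0.27 without ATF4 replicate 2 (adjusted p = 0.734) and 2.07 without ATF4 replicate 4 (adjusted p = 0.0441).

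The library high in Myh7 was not the highest ATF4 library in Acta1 or Nppa, which are also fetal genes of the ventricle. ATF4 replicate 2 had 416 CPM of the skeletal alpha-actin gene Acta1, against 1106 to 1617 CPM in the other ATF4 libraries. It had 666 CPM of the natriuretic peptide gene Nppa, within the 586 to 1147 CPM of the others. The Mir208b row, inside a Myh7 intron, gave 1 count per 374 Myh7 counts in ATF4 replicate 2, against 38.4 to 74.2 Myh7 counts per count in the other ATF4 libraries, 21.0 to 39.5 in DDIT3 and 18.0 to 40.6 in GFP libraries. The high level of Myh7 in that library was thus not matched on the precursor row, and why was not tested. Of the Myh7 transcript, 22.2% of its 50-base windows also occur in Myh6, and antisense genes, Mhrt among them, overlap Myh7 on the other strand. The kit does not mark strand, so reads of such partners cannot be told apart, and Mhrt was not analysed here.

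Myh7b (chr2:155611212-155634307, plus strand) encodes a slow-type heavy chain best known as the host of miR-499. It was at 63.8, 111, 92.9, 64.7 and 64.9 CPM in ATF4, 66.7, 109, 112, 67.7 and 60.9 CPM in DDIT3 and 106, 113, 114, 83.7 and 99.4 CPM in GFP replicates 1 to 5. ATF4 replicates 2 and 3 and DDIT3 replicates 2 and 3 lay within the GFP range, the rest of those groups lay below it, and every ATF4 and DDIT3 library lay below the GFP library of the same number. Myh7b had a log2 fold change of −0.38 ± 0.19 for ATF4 (adjusted p = 0.144) and −0.31 ± 0.19 for DDIT3 (adjusted p = 0.670) relative to GFP, and −0.07 ± 0.19 between them (adjusted p = 0.823). It passed for ATF4 without ATF4 replicate 2 (−0.53, adjusted p = 0.0385), without DDIT3 replicate 2 as well (0.0274) and in male libraries only (−0.63, adjusted p = 0.0236). With the replicate number as a block it also passed for ATF4 (−0.41, adjusted p = 0.00533), and for DDIT3 the adjusted p was 0.0989. The Mir499 row was at 0 counts in every library.

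The heavy chain make-up, the share of Myh7 in Myh6 plus Myh7 per length, had a median of 1.002% in ATF4 (0.213 to 6.49%), 0.541% in DDIT3 (0.268 to 1.05%) and 0.448% in GFP libraries (0.224 to 0.957%). The 3 ranges overlapped. The mean log2 ratio of Myh7 over Myh6 differed by 1.29 between ATF4 and GFP (exact two-sided permutation test, p = 0.190), by 0.20 between DDIT3 and GFP (p = 0.698) and by 1.09 between ATF4 and DDIT3 (p = 0.278). Without ATF4 replicate 2 the differences of ATF4 were 0.64 from GFP and 0.44 from DDIT3, and without ATF4 replicate 4 they were 1.89 and 1.69. Across 9 such ratio tests every Benjamini-Hochberg adjusted p was 0.706, with 5 libraries against 5 allowing no p under 0.00794.

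The ventricular regulatory light chain, Myl2, is the light chain that the cardiac kinase phosphorylates. Myl2 (chr5:122100951-122113472, plus strand) was at 2165, 2120.1, 3290.1, 3223 and 2417 CPM in ATF4 replicates 1 to 5. It was at 3676, 3572, 3638, 4509 and 3752 CPM in DDIT3 and 3017, 4073, 2928, 4683 and 3382 CPM in GFP replicates 1 to 5. Every ATF4 library lay below every DDIT3 library, while ATF4 replicates 3 and 4 lay above GFP replicates 1 and 3. The log2 fold change of Myl2 was −0.45 ± 0.15 for ATF4 relative to GFP (adjusted p = 0.0281), −0.53 ± 0.15 relative to DDIT3 (adjusted p = 0.0106) and 0.08 ± 0.15 for DDIT3 relative to GFP (adjusted p = 0.938). The call against GFP was lost without any 1 of ATF4 replicates 1, 2 and 5 and GFP replicates 2 and 4 (adjusted p of 0.0613 to 0.0905), without ATF4 and DDIT3 replicate 2 together (0.0657), in male libraries only (−0.27, adjusted p = 0.233) and in a fit of the 10 libraries alone (0.0512). The call against DDIT3 held in each alternative.

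The ventricular essential light chain, Myl3 (chr9:110741861-110769798, plus strand), gave the clearest separation. Myl3 was at 3151, 2882, 4843, 4666 and 3968 CPM in ATF4 replicates 1 to 5. It was at 6514, 6320.2, 6219, 8069.8 and 6922 CPM in DDIT3 and 6433, 7756, 5913, 7822 and 6596 CPM in GFP replicates 1 to 5. The highest ATF4 library lay below the lowest of either other group, so that Myl3 was the 1 gene of the 10 whose ATF4 and GFP libraries did not overlap, beside 21.4% of all genes tested. The log2 fold change of Myl3 was −0.82 ± 0.14 for ATF4 relative to GFP (adjusted p = 0.000203), −0.80 ± 0.14 relative to DDIT3 (adjusted p = 0.000244) and −0.02 ± 0.14 for DDIT3 relative to GFP (adjusted p = 0.988). Under the 25 alternatives it stayed between −0.91 and −0.69 against GFP, with adjusted p of at most 0.00277.

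Marker genes of several cell types differed between the same libraries as Myl2 and Myl3. Of the 16 cardiomyocyte markers, 9 were lower and 0 higher in ATF4 than in GFP libraries, with a median log2 fold change of −0.51. Over all genes tested, 15.6% were lower and 16.5% higher. Of 14 endothelial markers 12 were higher, with summed levels of 1399 to 2034 CPM in ATF4 libraries, against 601 to 1048 in DDIT3 and 605 to 1232 in GFP libraries. Of 12 tested pericyte and smooth muscle markers 6 were higher and 0 lower, with a median log2 fold change of 0.67. The 6 did not include the smooth muscle genes Acta2, Tagln and Myh11. Of 11 fibroblast markers 1 was higher and 1 lower. Their part in the fall of the light chains was not tested.

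**Figure D2:**
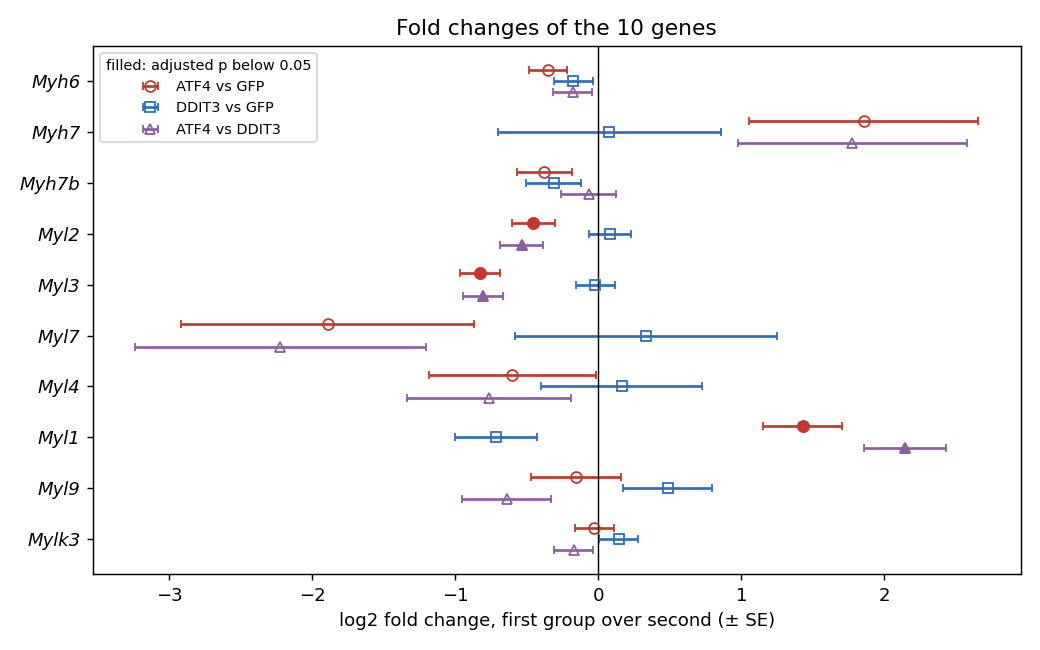
Log2 fold changes of the 10 genes with standard errors from the edgeR fit of 15 libraries, first group over second. Circles are ATF4 over GFP, squares DDIT3 over GFP and triangles ATF4 over DDIT3, and filled symbols have an adjusted p below 0.05. Myl2 and Myl3 are filled left of 0 and Myl1 right of 0 in both ATF4 comparisons, and no square is filled.

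Atrial regulatory light chain, Myl7 (chr11:5896637-5898782, minus strand), varied most of the 10, with a 582-fold span over the 15 libraries on the TPM scale. Myl7 was at 0.260, 12.3, 0.941, 2.13 and 6.35 CPM in ATF4 replicates 1 to 5. It was at 71.8, 13.04, 4.95, 0.130 and 11.3 CPM in DDIT3 and 11.9, 13.7, 32.2, 13.8 and 9.32 CPM in GFP replicates 1 to 5. The lowest values rest on 1 count in DDIT3 replicate 4 (exact 95% Poisson interval 0.00329 to 0.725 CPM) and 2 counts in ATF4 replicate 1 (0.0315 to 0.941 CPM), which cover counting error only. ATF4 replicate 2 reached the GFP range and the other 4 ATF4 libraries lay below it, while DDIT3 libraries spread to both sides. Myl7 had a log2 fold change of −1.89 ± 1.02 for ATF4 (adjusted p = 0.177) and 0.33 ± 0.91 for DDIT3 (adjusted p = 0.962) relative to GFP, and −2.22 ± 1.02 between them (adjusted p = 0.110). The last was −2.54 and passed without DDIT3 replicate 4 (adjusted p = 0.0387), and was −0.75 without DDIT3 replicate 1 (adjusted p = 0.549). Without DDIT3 replicate 1 the DDIT3 value against GFP turned to −1.15 (adjusted p = 0.867). The ATF4 value against GFP was −1.88 ± 0.67 in a fit of the ATF4 and GFP libraries alone (adjusted p = 0.0504). It was −1.89 ± 0.79 without DDIT3 replicate 1 (adjusted p = 0.0850) and −1.49 ± 1.05 without GFP replicate 3 (adjusted p = 0.317).

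Atrial and fetal essential light chain, Myl4 (chr11:104550663-104595753, plus strand), was at 5.99, 9.53, 4.98, 6.53 and 7.37 CPM in ATF4 replicates 1 to 5. It was at 36.8, 6.66, 5.19, 2.08 and 7.27 CPM in DDIT3 and 9.12, 8.47, 20.7, 7.77 and 6.16 CPM in GFP replicates 1 to 5. DDIT3 held both the highest and the lowest library, replicates 1 and 4, and all groups overlapped. In the fit, Myl4 had a log2 fold change of −0.60 ± 0.58 for ATF4 (adjusted p = 0.459) and 0.16 ± 0.56 for DDIT3 (adjusted p = 0.971) relative to GFP, and −0.76 ± 0.58 between them (adjusted p = 0.334). Without GFP replicate 3 the ATF4 value against GFP was −0.20 (adjusted p = 0.829). Without DDIT3 replicate 1 the DDIT3 value turned to −0.98 (adjusted p = 0.448) and that between ATF4 and DDIT3 to 0.38 (adjusted p = 0.474).

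The atrial chains varied together from library to library. Over the 15 libraries the log2 CPM of Myl4 and Myl7 correlated at Pearson's r = 0.824 (permutation p = 0.00025) and Spearman's rho = 0.875 (permutation p = 6e-05), 1 relation tested. Without DDIT3 replicate 4 and ATF4 replicate 1, the libraries farthest from the Myl7 median, r was 0.827, and after the group means were subtracted r was 0.852 over 15 libraries. Both genes were highest in DDIT3 replicate 1 and next highest in GFP replicate 3.

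Of 13 other atrial markers, 6 had their highest level in DDIT3 replicate 1 and 7 in another library. Among the 6 was Stard10, which was called higher in DDIT3 than in GFP libraries (log2 fold change 0.96, edgeR adjusted p = 0.00223). It was the 1 call with DDIT3 among 9 tested atrial markers, beside 0.863% of all genes. Whether single markers varied with the atrial chains was not tested. Sln, which encodes the atrial calcium pump inhibitor sarcolipin, was at 22.9 CPM in DDIT3 replicate 1 and 9.96 CPM in GFP replicate 3, and at 0.130 CPM in both ATF4 replicate 1 and DDIT3 replicate 4. Bmp10, an atrial growth factor, was at 5.93 CPM in DDIT3 replicate 1 and at 0 counts in 11 of 15 libraries. Mybphl, an atrial myosin-binding protein gene, was highest in DDIT3 replicate 1 too, at 10.5 CPM. Nppa was instead highest in DDIT3 replicate 2 (1416 CPM) and lowest in GFP replicate 4 (110.2 CPM). Gja5, a gap junction gene, was highest in GFP replicate 3 (7.66 CPM) and lowest in DDIT3 replicate 2 (1.94 CPM). Nr2f2, a transcription factor gene of atrial identity, was lowest in DDIT3 replicate 1 (1.45 CPM) and highest in GFP replicate 1 (4.16 CPM). Of the 13 markers 9 could be tested, and 1 was higher and 2 were lower in ATF4 than in GFP cells. That is near the 32.2% of all genes tested that were called in either direction. The 12 other than Nppa summed to 24.2 to 37.5 CPM in ATF4, 52.2 to 116 in DDIT3 and 55.1 to 79.7 in GFP libraries. The ATF4 range lay below both others. The sum's largest parts were Kcnj3 (means of 8.32, 17.7 and 26.3 CPM in ATF4, DDIT3 and GFP) and Stard10 (7.39, 26.5 and 13.7 CPM). These were the 2 markers called lower with ATF4. The 8 ventricular markers summed to 188.8 to 287.7 CPM in ATF4 and 294.1 to 424.2 in GFP libraries. The 12 conduction markers summed to 92.3 to 133.7 and 180.5 to 233.6 CPM there. Both DDIT3 ranges overlapped those of ATF4. Kcne1 is in both lists (means of 15.5 CPM in ATF4 and 91.4 in GFP). The part of the atrial markers in the levels of Myl7 and Myl4 was not tested.

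**Figure D3:**
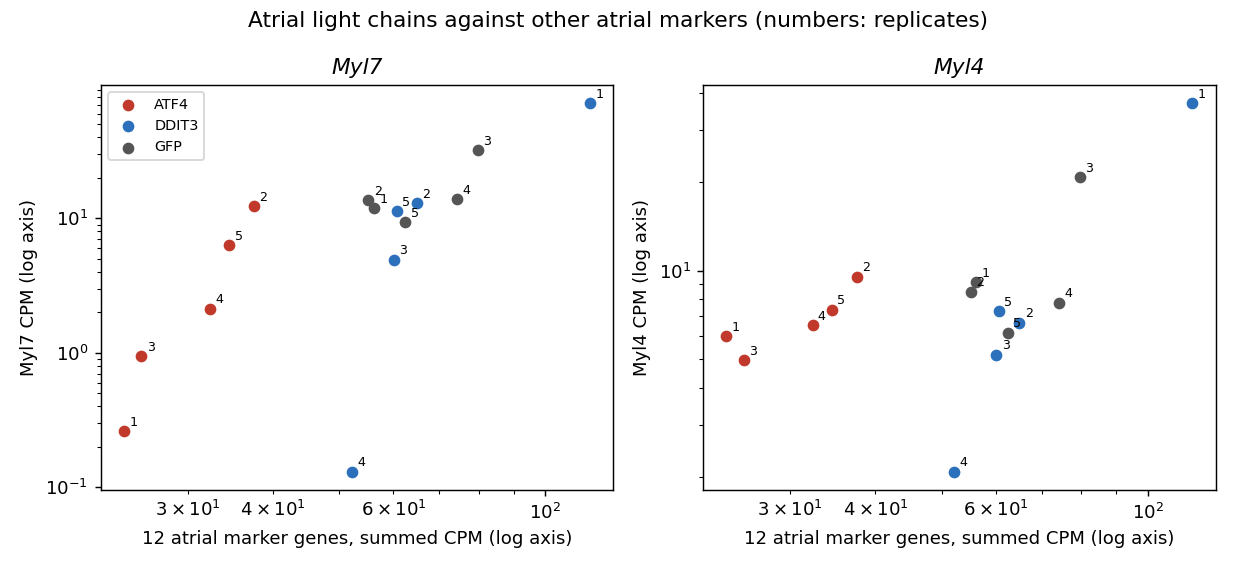
Myl7 (left) and Myl4 (right) in CPM against the summed CPM of 12 other atrial markers in the same library, on log axes. Points are the 15 libraries with their replicate number, coloured by group. DDIT3 replicate 1 is at the upper right in both panels (71.8 CPM of Myl7 and 36.8 CPM of Myl4) and DDIT3 replicate 4 at the bottom.

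Set against the ventricular chain of the same kind, the atrial chains were a small share. The share of Myl7 in Myl2 plus Myl7 per length had a median of 0.0708% in ATF4 (0.0129 to 0.619%), 0.323% in DDIT3 (0.00310 to 2.05%) and 0.359% in GFP libraries (0.295 to 1.16%). For Myl4 in Myl3 plus Myl4 it was 0.188% in ATF4 (0.104 to 0.335%), 0.107% in DDIT3 (0.0262 to 0.571%) and 0.111% in GFP libraries (0.0949 to 0.354%). All ranges overlapped. The mean log2 ratio of Myl7 over Myl2 differed by −2.26 between ATF4 and GFP (exact two-sided permutation test, p = 0.0873), −1.31 between DDIT3 and GFP (p = 0.484) and −0.95 between ATF4 and DDIT3 (p = 0.603). For Myl4 over Myl3 the differences were 0.35 (exact permutation p = 0.444), −0.37 (p = 0.706) and 0.72 (p = 0.373), with the adjusted p given above. With 1 library left out, the Myl7 over Myl2 difference between ATF4 and DDIT3 ran from −2.26 without DDIT3 replicate 4 to −0.059 without DDIT3 replicate 1. The Myl4 over Myl3 difference ran from 0.12 without ATF4 replicate 2 to 0.68 without GFP replicate 3 for ATF4 relative to GFP, and from 0.22 without DDIT3 replicate 4 to 1.32 without DDIT3 replicate 1 for ATF4 relative to DDIT3.

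**Figure D4:**
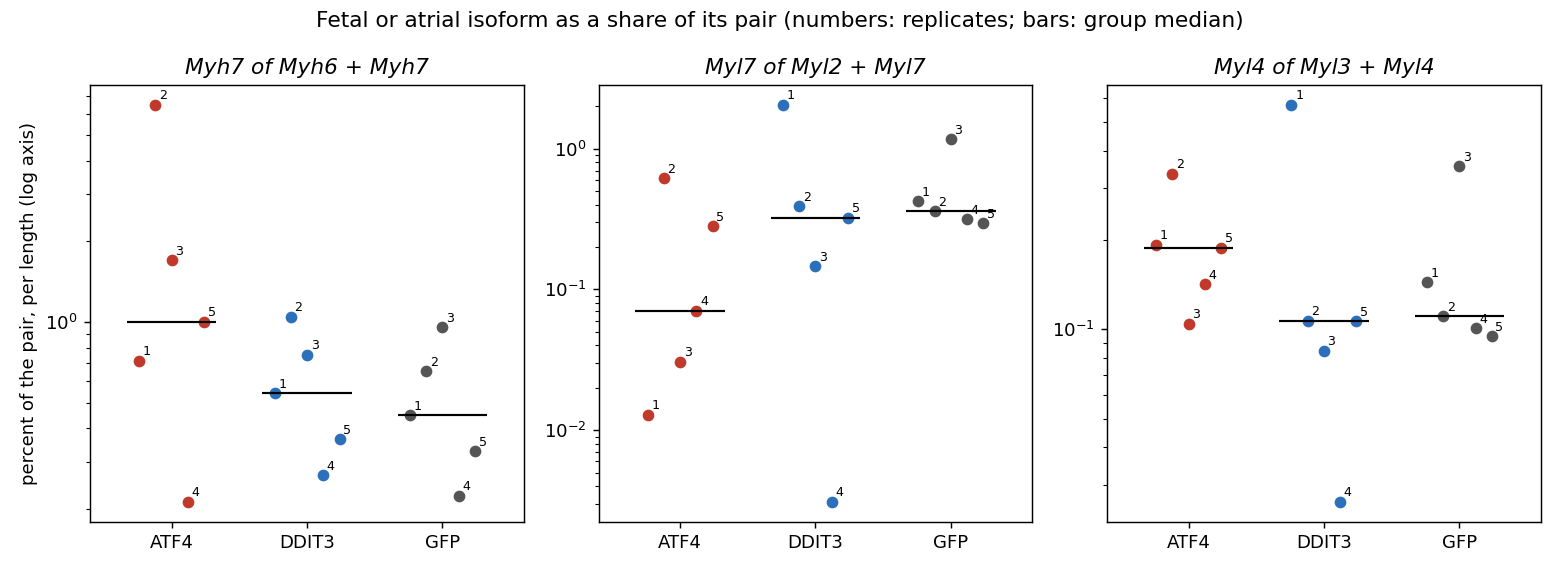
Share of the fetal or atrial isoform in its pair, per length and in percent on log axes: Myh7 of Myh6 plus Myh7, Myl7 of Myl2 plus Myl7, and Myl4 of Myl3 plus Myl4. Points are libraries with their replicate number and bars are group medians. ATF4 replicate 2 is highest for the heavy chains at 6.49%, and DDIT3 replicate 1 is highest for both light chains.

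Myl1 (chr1:66924295-66945404, minus strand) encodes the essential light chain of fast skeletal muscle. Myl1 was at 51.04, 26.97, 57.8, 86.2 and 48.8 CPM in ATF4 replicates 1 to 5. It was at 11.6, 14.3, 10.1, 13.5 and 11.7 CPM in DDIT3 and 14.6, 14.99, 15.01, 36.2 and 19.6 CPM in GFP replicates 1 to 5. ATF4 libraries were highest apart from replicate 2, which lay below GFP replicate 4. Every DDIT3 library lay below every other library. The log2 fold change of Myl1 was 1.43 ± 0.28 for ATF4 relative to GFP (adjusted p = 0.000760), 2.14 ± 0.29 relative to DDIT3 (adjusted p = 2.02e-05) and −0.72 ± 0.29 for DDIT3 relative to GFP (unadjusted p = 0.0232, adjusted p = 0.391 in edgeR). Myl1 was the 1 gene of the 10 whose DDIT3 and GFP libraries did not overlap, beside 2.86% of all genes. Between ATF4 and DDIT3 there were 3, Myl1, Myl2 and Myl3, beside 22.6%.

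The GFP libraries highest in Myl1, replicates 4 and 5, were the female ones, and the ATF4 library lowest in it was the female one. In male libraries only the log2 fold change of Myl1 was 2.03 for ATF4 relative to GFP (adjusted p = 1.43e-06), and for DDIT3 it was −0.34 (adjusted p = 0.552).

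Of 14 skeletal muscle markers 4 could be tested, and with ATF4 Acta1 was higher and the other 3 were lower. Over all genes tested, 16.5% were higher and 15.6% lower with ATF4. Myh1 was at 0 counts in all 15 libraries, and Myh2, Myh4, Tnnc2, Myod1 and Myog each had at most 1 count in any library. The 13 skeletal markers other than Acta1 summed to 20.4 to 43.3 CPM in ATF4, 71.9 to 107 CPM in DDIT3 and 55.6 to 79.4 CPM in GFP libraries. Most of that sum was Mybpc2 (means of 23.3, 69.1 and 44.9 CPM in ATF4, DDIT3 and GFP libraries) and Tnnt1 (10.3, 18.9 and 21.1 CPM). The fast light chain gene Mylpf, at 2 to 8 counts, instead had its highest mean in ATF4 libraries (0.770 CPM, against 0.491 and 0.534 CPM). The sum was lowest in ATF4 libraries, where Myl1 was highest, and the part of these markers in the Myl1 result was not tested. Acta1 itself was higher with ATF4, at 416 to 1617 CPM in ATF4, 73.8 to 184 CPM in DDIT3 and 113 to 264 CPM in GFP libraries.

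Myl9 (chr2:156775420-156781658, plus strand) encodes the regulatory light chain of smooth muscle. Myl9 was at 22.7, 12.2, 37.5, 41.3 and 42.5 CPM in ATF4, 63.1, 25.2, 63.3, 61.8 and 30.04 CPM in DDIT3 and 33.9, 33.8, 46.1, 30.4 and 30.03 CPM in GFP replicates 1 to 5. All groups overlapped, and DDIT3 libraries formed a high set of replicates 1, 3 and 4 and a low set of 2 and 5. For Myl9 the log2 fold change was −0.16 ± 0.32 for ATF4 (adjusted p = 0.745) and 0.49 ± 0.31 for DDIT3 (adjusted p = 0.692) relative to GFP. Between ATF4 and DDIT3 it was −0.64 ± 0.31 (adjusted p = 0.129), and it passed without DDIT3 replicate 2 (adjusted p = 0.0484) and with a term for sex (adjusted p = 0.0404). Of the smooth muscle and pericyte markers tested, 6 of 12 were higher in ATF4 than in GFP libraries, beside 16.5% of all genes. The 12 other than Des summed to 750 to 1441 CPM in ATF4, 722 to 1439 CPM in DDIT3 and 891 to 1375 CPM in GFP libraries. Most of that sum was Abcc9 (means of 496, 433 and 473 CPM in ATF4, DDIT3 and GFP) and Acta2 (387, 458 and 461 CPM). Neither was called in any comparison. The 6 called higher with ATF4 were Pdgfrb, Rgs5, Cspg4, Kcnj8, Notch3 and Higd1b. Tagln (log2 fold change 0.37) and Myh11 (0.17) were not called with ATF4 relative to GFP, nor was Acta2 (−0.25). Of the list's defining genes, Cnn1 had at most 6 counts and was at 0 in 8 libraries. Tagln had 7 to 42 counts, Myh11 25 to 119 and Acta2 272 to 7037.

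Mylk3 (chr8:85324303-85386345, minus strand) encodes the cardiac myosin light chain kinase, which phosphorylates Myl2. Mylk3 was at 1183, 1293, 891, 1022 and 1034 CPM in ATF4, 1452, 1473, 912, 1089.7 and 1172 CPM in DDIT3 and 1204, 1139, 930.4, 1012 and 1238 CPM in GFP replicates 1 to 5. The ranges of the 3 groups overlapped widely. Mylk3 had log2 fold changes of −0.03 ± 0.14 for ATF4 (adjusted p = 0.904) and 0.14 ± 0.14 for DDIT3 (adjusted p = 0.825) relative to GFP, and −0.17 ± 0.14 between them (adjusted p = 0.364).

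Per length, the order in GFP libraries was Myh6, Myl3 (15970.1 TPM, rank 7 of all genes) and Myl2 (11833 TPM, rank 9), then Mylk3 (751 TPM), Myh7 (107 TPM), Myl9 (67.3 TPM), Myl7 (57.6 TPM), Myl1 (37.3 TPM), Myh7b (35.0 TPM) and Myl4 (24.9 TPM). The 3 adult ventricular chains overlapped their neighbours in that order, as did the 6 genes from Myh7 to Myl4. Gaps without overlap lay between Myl2 and Mylk3 and between Mylk3 and Myh7. Across all 15 libraries the TPM of Myl7 spanned 582-fold, Myh7 46.4-fold, Myl4 18.7-fold and Myl1 8.87-fold, and the other 6 genes spanned 1.70-fold to 4.16-fold.

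Libraries also differed in the balance of short and long transcripts, and the abundant chains followed it. A length index was taken in each library as the median log2 deviation of 747 genes of at most 1000 bases minus that of 3714 genes of at least 4000 bases, without the 10 genes. It averaged −0.125 ± 0.310 in ATF4, 0.148 ± 0.103 in DDIT3 and −0.0336 ± 0.248 in GFP libraries (SD, n = 5 each). After the group means were subtracted, it correlated over 15 libraries with Myl2 at r = 0.917 (permutation p adjusted over 10 relations = 0.00015) and rho = 0.843 (0.0022), with Myl3 at r = 0.875 (0.00015) and rho = 0.729 (0.00933), and with Myh6 at r = −0.761 (0.00313) and rho = −0.739 (0.00933). Without ATF4 replicate 3 and GFP replicate 2, the libraries farthest from the index median, r was 0.904 for Myl2, 0.835 for Myl3 and −0.621 for Myh6. Myl1 gave r = 0.618 (0.029) and rho = 0.486 (0.138), and the other 6 genes did not pass.

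With the length index as a term in the fit, an alternative chosen after the data were seen, Myh6 passed for ATF4 relative to GFP at −0.41 (adjusted p = 0.00325) and relative to DDIT3 at −0.38 (adjusted p = 0.0121). In that fit Myl3 was at −0.77 (adjusted p = 2.29e-06), Myl2 at −0.37 (adjusted p = 0.00147) and Myl1 at 1.53 (adjusted p = 7.09e-05) relative to GFP. Relative to DDIT3, Myl3 was at −0.59 (adjusted p = 0.000143), Myl2 at −0.29 (adjusted p = 0.0196) and Myl1 at 2.46 (adjusted p = 1.70e-06). Without the term these values against DDIT3 were −0.80, −0.53 and 2.14.

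**Figure D5:**
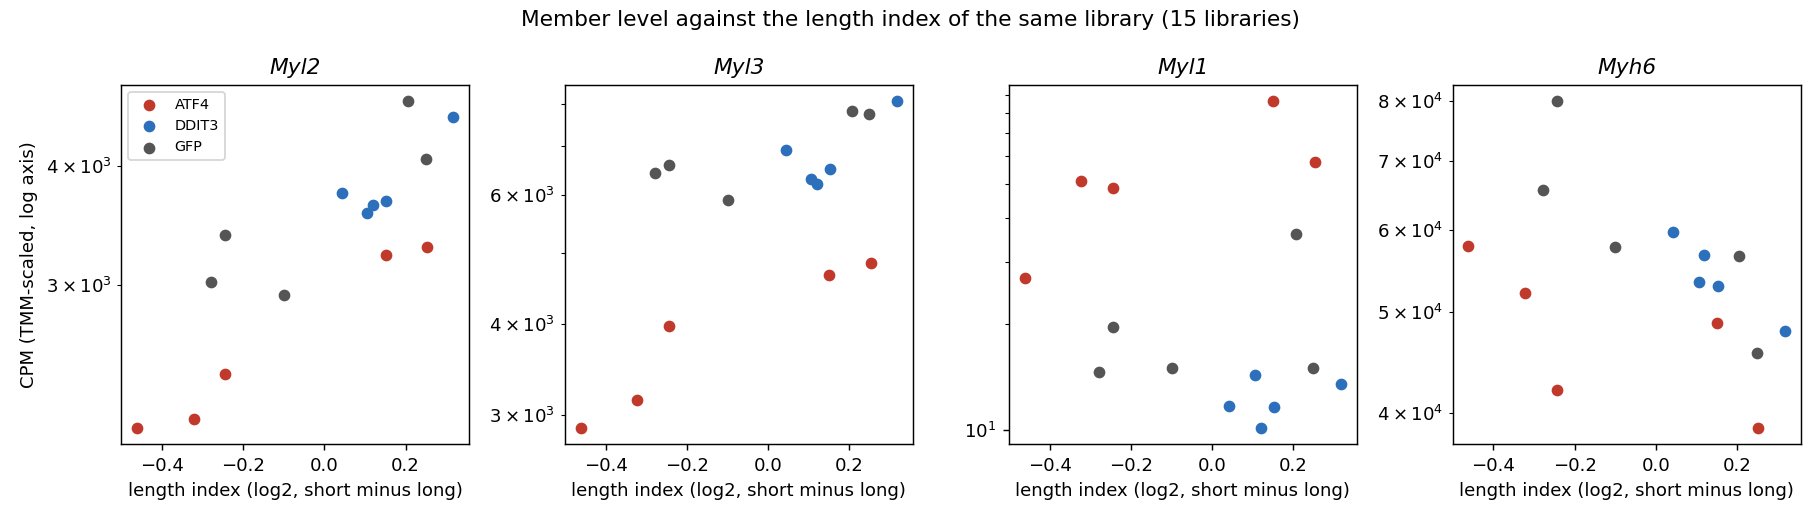
Levels of Myl2, Myl3, Myl1 and Myh6 in CPM (log axes) against the length index of the same library (log2, short minus long transcripts). Points are the 15 libraries coloured by group. Within groups the short Myl2 and Myl3 climb with the index and the long Myh6 declines, and at a like index the ATF4 points of Myl3 lie below those of GFP.

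The genes whose library-to-library pattern was most like a chain, by Pearson's r of log2 CPM after subtracting group means over 15 libraries, differed by chain. For Myh6 they included Lama2, Gcn1l1, Pdcd11 and Dip2c (r of 0.888 to 0.958), of 6043 to 9713 bases. For Myl2 they were Uqcrq, Rplp0, Timm8b, Minos1 and Hint1 (0.955 to 0.977), of 499 to 2683 bases. Those of Myl9 were Tpm2, a tropomyosin gene, Cnn2, a calponin gene, Cux2, Uck1 and Psmc5 (0.871 to 0.924). For Myh7 they were Rbmx, Klhl11, Pank4, Ogt and Clcn2 (0.926 to 0.938), and for Myl7 Zbtb6, Dclre1a, Rspry1, Glt8d1 and Rbm39 (0.770 to 0.831). Myl2 and Myl3 themselves correlated at 0.925 in this measure. Such values share library, depth and length balance.

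Around the motor, 5 of 9 thick filament partners and 5 of 9 thyroid hormone axis genes were lower with ATF4 and 0 higher. Of 22 myosin gene regulators 6 were lower and 2 higher, and of 11 light chain kinases and phosphatases 3 were lower and 0 higher. Over all genes tested, 15.6% were lower and 32.2% were called in either direction. In either direction, the regulators (8 of 22) and the kinases and phosphatases (3 of 11) were near that background. With DDIT3, 0 of the 69 genes tested in 8 lists passed relative to GFP in edgeR, with 6 at an unadjusted p under 0.05, beside 9.71% of all genes, and 1 passed in DESeq2, Unc45b (adjusted p = 0.0338). Of 9 tested thick filament partners, 5 were lower and 0 higher in ATF4 than in GFP cells, with a list median of −0.55. They included the myosin-binding protein genes Mybpc3 (log2 fold change −0.55 ± 0.11, adjusted p = 0.000765) and Mybpc2 (−0.95 ± 0.22, adjusted p = 0.00324), and the M-band genes Myom1 (−0.56 ± 0.11, adjusted p = 0.000562) and Obsl1 (−0.84 ± 0.13, adjusted p = 9.49e-05). Of 11 genes of myosin folding and turnover, 6 were called with ATF4, beside 32.2% of all genes tested. Of the 11, 4 were lower (beside 15.6% of all genes) and 2 higher (beside 16.5%), with a list median of −0.01. Lower were the chaperone gene Unc45b (−0.55 ± 0.09), the methyltransferase gene Smyd2 (−0.91 ± 0.09) and the ubiquitin ligase gene Trim63 (−0.60 ± 0.16), and higher was the chaperone gene Hsp90aa1 (0.66 ± 0.15).

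Of 11 light chain kinase and phosphatase genes, 3 were lower with ATF4 and 0 higher, with a list median of 0.04. They were Mylk4, a further kinase gene of the family (−1.29 ± 0.37, adjusted p = 0.0137), Ppp1cb, a phosphatase catalytic subunit gene (−0.51 ± 0.16, adjusted p = 0.0240), and Ppp1r14c, a phosphatase inhibitor gene (−0.80 ± 0.10, adjusted p = 1.01e-05). Without ATF4 replicate 4 the count was 5. The call of Ppp1cb was lost without any 1 of ATF4 replicates 1 and 3 and GFP replicates 4 and 5 (adjusted p of 0.0509 to 0.0722), without ATF4 and DDIT3 replicate 2 together (0.0537) and in male libraries only (0.272).

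Of 9 thyroid hormone axis genes, which act on the Myh6 and Myh7 switch, 5 were lower with ATF4 and 0 higher, with a list median of −0.46. They included the receptor genes Thra (−0.62 ± 0.14, adjusted p = 0.00267) and Thrb (−0.56 ± 0.12, adjusted p = 0.00174), the transporter gene Slc16a10 (−0.86 ± 0.14, adjusted p = 0.000185) and the corepressor gene Hr (−1.51 ± 0.49, adjusted p = 0.0273). The count was 3 without ATF4 replicate 1 or GFP replicate 5, and also in male libraries only. Hr lost its call without ATF4 replicate 1 or GFP replicates 3 or 5 (adjusted p of 0.0663 to 0.0773), with no filter on low counts (0.0688) and in male libraries only (0.0546).

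Of 22 other regulators of myosin genes, 6 were lower and 2 higher with ATF4, with a list median of −0.26. Lower were the cofactor gene Myocd (−0.67 ± 0.17), the ventricular homeobox gene Irx4 (−0.52 ± 0.14), and Mef2a (−0.30 ± 0.08), and higher was the calcineurin regulator gene Rcan1 (0.99 ± 0.25). Of the other light chain genes, the nonmuscle Myl12b (0.76 ± 0.19, adjusted p = 0.00564) and Myl12a (0.46 ± 0.13, adjusted p = 0.0119) were higher, 2 of 3 tested, beside 16.5% of all genes. Of 3 nonmuscle heavy chain genes, Myh10 was higher (0.81 ± 0.22, adjusted p = 0.00832). The count was 2 without DDIT3 replicate 4 or GFP replicate 4. It was also 2 with the replicate block, with the length index term and in a fit of the ATF4 and GFP libraries alone. Of 8 other muscle heavy chain genes, only Myh11 of smooth muscle could be tested, and it did not pass (0.17 ± 0.37).

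The authors' deposited table gave the same calls at an adjusted p below 0.05 among the 10 genes. For ATF4 over GFP, the authors' deposited table lists Myl3 at −0.85 (adjusted p = 2.59e-06), Myl1 at 1.40 (adjusted p = 4.27e-05) and Myl2 at −0.48 (adjusted p = 0.0307). In the authors' deposited table Myh6 (−0.37, adjusted p = 0.0739) and Myh7 (1.84, adjusted p = 0.0980) did not pass, and none of the 10 passed for DDIT3 over GFP.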

How the data were processed

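PolyA RNA was amplified with a SMART-Seq v4 kit and made into Nextera XT libraries, per the labels' protocols. STAR, featureCounts and DESeq2 and the mouse build mm10 are named in the submitters' processing notes, and no tool versions are given there. The authors deposited whole-number read counts per gene with a gene length in bases. The authors also deposited their own comparisons against GFP, which hold, per the file headers, a mean signal, a log2 fold change, score columns (its standard error and the Wald statistic) and p-values. Of these, fold changes and adjusted p-values are quoted only as the authors' deposited table.

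Counts were tested with edgeR 4.0.16 in R 4.3.3 (filterByExpr, TMM factors, robust quasi-likelihood fit of 15 libraries by group, leaving 12 residual degrees of freedom), and p-values were adjusted by Benjamini-Hochberg over 11814 genes with a threshold of 0.05. The fit was tested on simulated data. CPM use TMM factors, TPM the deposited lengths, and ratios 0.5 added to each count. Errors of groups are SD over 5 libraries and those of fold changes are SE. The common biological coefficient of variation was 19.6%. Whether libraries came from separate animals is not given in the labels, so p-values measure only the spread between these samples. No 2 libraries of a group were copies (chi-square per degree of freedom of 8.60 to 50.4). Replicate numbers come from the titles. Same-numbered libraries deviated together in all pairs for DDIT3 with GFP (r of 0.205 to 0.511) and ATF4 with DDIT3 (0.135 to 0.497), and in 4 of 5 for ATF4 with GFP (0.0783 to 0.386). With the replicate number as a block, 322 genes were called for DDIT3 relative to GFP against 102 without it, and 0 of the 10 genes in either. Gene positions are from GENCODE (GRCm38, the same assembly as mm10).

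The 10 genes, the gene lists, the tests and the rule for naming genes were chosen with earlier results of these data known. Named from each list were up to 4 called genes with the lowest p, and for 5 of the chains the 5 genes most alike with at least 5 CPM, of which 1 is not reported here. Alternatives were other scaling factors, no filter, DESeq2 1.42.0, fewer samples, a replicate block, a sex term, other pseudocounts and each library left out. A length index term and male libraries only were added after the data were seen.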

Additional observations from a re-analysis of the deposited data

Results flagged for a closer look

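Among the 39 sets of 5 libraries examined (30 of single genes and 9 of ratios), 3 held a library far from the other 4 by Dixon's test at the 95% level on log2 values, which chance gives in about 1 set in 20. Myl2 in DDIT3 replicate 4 was at 4509 CPM, against 3572 to 3752 CPM in the other DDIT3 libraries. That library also had the lowest Myl7 and Myl4 of all 15 and the highest length index, 0.317. Myl9 in GFP replicate 3 was at 46.1 CPM, against 30.03 to 33.9 CPM in the other GFP libraries. The log2 ratio of Myl7 over Myl2 in GFP replicate 3 was −6.40, against −8.39 to −7.87 in the other GFP libraries. GFP replicate 3 was also the highest of its group in Sln, Mybphl and Dkk3, at 9.96, 5.51 and 8.42 CPM. On CPM without the log, 8 of the 30 sets of single genes passed, in place of 2. They were Myl2 and Myl9 as above, Myh7 in ATF4 replicate 2 (4006 CPM), Myl7 (71.8 CPM) and Myl4 (36.8 CPM) in DDIT3 replicate 1, Myl7 (32.2 CPM) and Myl4 (20.7 CPM) in GFP replicate 3, and Myl1 in GFP replicate 4 (36.2 CPM).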

How the results depend on the processing

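Over the alternatives, 2 to 4 of the 10 genes were called for ATF4 relative to GFP, 0 for DDIT3 relative to GFP and 3 to 4 for ATF4 relative to DDIT3. Myl1 and Myl3 kept their calls and directions in both ATF4 comparisons in all 25. The replicate block changed no member's call for DDIT3 against GFP or for ATF4 against DDIT3. For ATF4 relative to GFP, where same-numbered libraries deviated together in 4 of 5 pairs and less so in replicate 2 (r = 0.0783), it called Myh7b (−0.41, adjusted p = 0.00533) and moved the count over all genes to 5097 from 3801 without it. For DDIT3 relative to GFP the count over all genes was 102, with 223 in DESeq2 and 55 to 146 without 1 library, lowest without DDIT3 replicate 1.

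Directions turned only in values that had not passed. With the replicate block Myh7, Myl7 and Myl4 for DDIT3 relative to GFP came to −0.063, −0.35 and −0.16. With a sex term Myh7 for DDIT3 relative to GFP was −0.015 and Mylk3 for ATF4 relative to GFP 0.0086. Without ATF4 and DDIT3 replicate 2 together, Myl9 for ATF4 relative to GFP was 0.046, and for DDIT3 relative to GFP Myh7 was −0.21, Myl3 0.0058 and the Myh7 over Myh6 ratio −0.044. In male libraries only Myh7 was −0.53 and Myl3 0.050 for DDIT3 relative to GFP, and with the length index term Myl2 was −0.085. With 1 library left out, values for ATF4 relative to GFP ran from −0.29 to 0.046 for Myl9 and from −0.099 to 0.035 for Mylk3. For DDIT3 relative to GFP they ran from −0.21 to 0.40 for Myh7, −1.15 to 0.73 for Myl7, −0.089 to 0.029 for Myl3 and −0.98 to 0.56 for Myl4, and for the ratios from −0.059 to 0.47 for Myh7 over Myh6, −2.20 to 0.0060 for Myl7 over Myl2 and −0.97 to 0.13 for Myl4 over Myl3. For ATF4 relative to DDIT3 they ran from −0.22 to 0.060 for Myh7b and −1.03 to 0.38 for Myl4. Values that kept their sign and had not passed also moved, for DDIT3 relative to GFP from −0.81 to −0.39 for Myl1 (without GFP replicate 4) and −0.26 to −0.058 for Myh6 (without GFP replicate 5). The causes were not tested. Low counts limit Myl7 and Myl4.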
